A study of Caenorhabditis elegans with 8 samples.

Results

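The heterochronic genes order the developmental stages of the nematode Caenorhabditis elegans, and their RNA was followed here in young adults of 2 strains. The group was taken by name as lin-14, lin-28, hbl-1, lin-41, lin-46, daf-12, lin-42 and lin-29, and all 8 of 8 names were found among the 20541 genes listed. Polyadenylated RNA was sequenced from whole worms that had been staged as young adults by timing the laying of their eggs. HC125 was taken to be the strain with the Psid-1::gfp transgene, in which the sid-1 promoter drives green fluorescent protein, because the study names that transgene and a wild type, and the other strain, N2, is the wild type. The labels give no further allele, no copy number and no integration site for HC125. There were 4 HC125 and 4 N2 libraries, 2 of each strain in a paired-end experiment without strand information and 2 of each in a single-end stranded experiment made with another kit.

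The deposited tables hold 1 value per gene, strain and experiment in FPKM (fragments per kilobase of transcript, scaled to library size), which pools 2 libraries. FPKM is scaled for length, so levels of different genes can be set side by side within a table, though a bias by kit or gene model can remain. The spread between libraries and the read depth are unknown. Each log2 ratio is given with the standard error (SE) that follows from the authors' test statistic. No label says whether libraries of a strain came from separate cultures, so the p-values may rest on technical spread alone. A gene was called at q of 0.05 or less in the authors' deposited table.

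In this pathway, early regulators hold back later larval programmes until microRNAs turn them down. LIN-14 and HBL-1 are transcription factors, and LIN-28 and LIN-41 bind RNA. The microRNA lin-4 acts on lin-14 and lin-28, microRNAs of the let-7 family act on hbl-1, lin-41 and daf-12, and the zinc finger protein LIN-29 then switches the skin to its adult form. LIN-41 also has a separate role in the growing oocytes of the adult.

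All 8 heterochronic genes had FPKM values above 0 in young adults, and by these values an abundant pair stood above the rest. lin-41 and lin-28, early regulators, were the highest in both strains and both experiments. lin-29, which specifies the adult skin, was among the rest, though its estimate was the least certain of the group. None of the 8 was called different between HC125 and N2 in either experiment, and the strain ratio of lin-42 lay above 1 in one experiment and below 1 in the other without passing a test.

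lin-41 stood at 130 FPKM in HC125 and 153 FPKM in N2 in the paired-end experiment. In the single-end experiment it stood at 65.8 FPKM in HC125 and 72.7 FPKM in N2. These levels were above those of 93.5% of all listed genes in HC125 and 94.8% in N2 in the paired-end table, and of 88.8% in HC125 and 89.6% in N2 in the single-end table. A list of 8 oocyte genes, most of them RNA-binding regulators, was tested in full in both experiments. By the mean of the 4 values its highest members were puf-5, a Pumilio-family repressor, and spn-4. puf-5 stood at 480 FPKM in HC125 and 498 FPKM in N2, then at 1099 FPKM in HC125 and 1123 FPKM in N2 in the single-end experiment. spn-4, a maternal RNA-binding protein, stood at 609 FPKM in HC125 and 682 FPKM in N2, then at 542 FPKM in HC125 and 513 FPKM in N2 in the single-end experiment. No gene of that list was called in either experiment, and its median log2 ratio was -0.08 and -0.04.

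lin-28, the RNA-binding protein that blocks let-7 maturation, was the other abundant member. It stood at 101 FPKM in HC125 and 103 FPKM in N2 in the paired-end experiment, and at 32.4 FPKM in HC125 and 37.2 FPKM in N2 in the single-end experiment. The step from lin-28 to the next gene down was the widest in the order, between 8.81-fold and 10.9-fold in the 4 pooled values. It exceeded a bound of 95% built from the SEs of both genes' strain ratios, which were taken as limits for the sampling errors of single levels. A bias of a gene's level that is alike in both strains, as by kit or gene model, is not in this bound. In N2, for instance, lin-14 lay above hbl-1 paired-end (11.7 and 3.09 FPKM) and below it single-end (2.14 and 3.82 FPKM). The lin-41 level was 2.03-fold that of lin-28 in HC125 and 1.95-fold in N2 in the single-end experiment, beyond that bound, and 1.30-fold in HC125 and 1.48-fold in N2 in the paired-end experiment, within it.

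**Figure D1:**
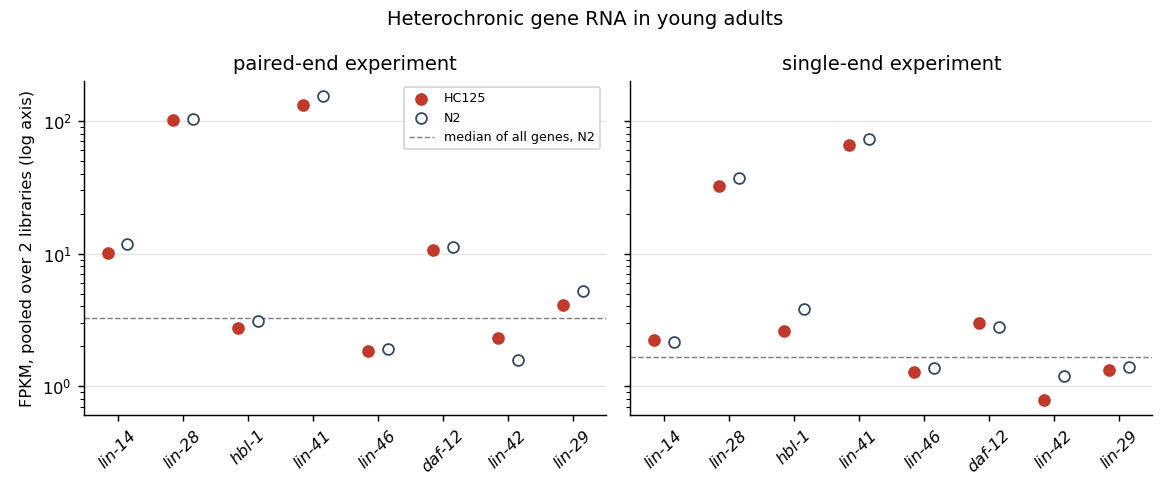
FPKM of the 8 heterochronic genes on a log axis, with HC125 as filled and N2 as open points, each point pooling 2 libraries with no error of its own. lin-41 and lin-28 stand above the rest in both panels, and lin-46 and lin-42 lie below the dashed line in both, the N2 median of all listed genes (3.28 FPKM paired-end, 1.67 FPKM single-end).

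The other early regulators were far lower. lin-14 stood at 10.02 FPKM in HC125 and 11.7 FPKM in N2 in the paired-end experiment, and at 2.23 FPKM in HC125 and 2.14 FPKM in N2 in the single-end experiment. hbl-1, the worm relative of hunchback, stood at 2.74 FPKM in HC125 and 3.09 FPKM in N2, then at 2.59 FPKM in HC125 and 3.82 FPKM in N2 in the single-end experiment. The lin-28 level was thus 10.03-fold that of lin-14 in HC125 and 8.81-fold in N2 in the paired-end experiment, and 14.6-fold in HC125 and 17.4-fold in N2 in the single-end experiment. All 4 of these differences exceeded the bound.

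The genes that act at the switches between stages also lay below lin-41 and lin-28. daf-12, a nuclear receptor for bile-acid-like steroids that links food to stage progression, stood at 10.7 FPKM in HC125 and 11.1 FPKM in N2, then at 2.98 FPKM in HC125 and 2.81 FPKM in N2 in the single-end experiment. lin-46, which acts downstream of lin-28 and opposes hbl-1 activity, stood at 1.84 FPKM in HC125 and 1.92 FPKM in N2, then at 1.28 FPKM in HC125 and 1.38 FPKM in N2 in the single-end experiment. The daf-12 values lay above the N2 median of all listed genes in both experiments, and the lin-46 values lay below it.

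lin-42, the relative of the clock protein Period, is known to cycle with the larval moults. It stood at 2.32 FPKM in HC125 and 1.59 FPKM in N2 in the paired-end experiment, and at 0.792 FPKM in HC125 and 1.19 FPKM in N2 in the single-end experiment. It was the lowest member in HC125 and in N2 in the single-end experiment and in N2 in the paired-end experiment, while lin-46 was the lowest in HC125 there. These 2 genes were not separated beyond the bound in any of the 4 values.

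lin-29, the late regulator, stood at 4.12 FPKM in HC125 and 5.20 FPKM in N2, then at 1.33 FPKM in HC125 and 1.40 FPKM in N2 in the single-end experiment. The lin-41 level was 31.6-fold that of lin-29 in HC125 and 29.4-fold in N2 in the paired-end experiment. The single-end factors were 49.4 in HC125 and 51.8 in N2, and all 4 lay beyond the bound. The lin-28 level was 24.4-fold that of lin-29 in HC125 and 19.9-fold in N2 paired-end, beyond the bound, and 24.3-fold in HC125 and 26.5-fold in N2 single-end, within it. The lin-29 estimate was the least certain of the group, with an implied SE of its log2 ratio of 1.65 paired-end and 2.45 single-end. Only 6.89% and 1.92% of tested genes with an implied SE had one as large. The tables list lin-29 with the same span as hmg-12, a gene on the opposite strand, whose annotated exons overlap those of lin-29 by 2 bp. hmg-12 stood at 118 FPKM in HC125 and 143 FPKM in N2, then at 532 FPKM in HC125 and 575 FPKM in N2 in the single-end experiment. Whether reads of hmg-12 enter the lin-29 values was not tested.

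Below lin-28, no neighbouring pair in the order of levels was separated by more than the bound in any of the 4 values. Over the 28 steps between neighbours, 6 exceeded the bound, namely the step below lin-28 in all 4 values and that from lin-41 to lin-28 in HC125 and in N2 in the single-end experiment. In the single-end experiment the order below lin-28 began with daf-12, hbl-1 and lin-14 in HC125 and with hbl-1, daf-12 and lin-14 in N2. In the paired-end experiment it began with daf-12 and lin-14 in HC125 and with lin-14 and daf-12 in N2. Genes further apart in the order below lin-28 were not set against the bound. Paired-end in N2, for instance, lin-14 stood at 11.7 FPKM and daf-12 at 11.1 FPKM, beside lin-46 at 1.92 FPKM. The genes below lin-28 are thus not shown to share a level.

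The strain ratios of these genes serve as a check of stage between the transgenic worms and the wild type. The authors' deposited paired-end table called 0 of 8 heterochronic genes and 0.212% of 15114 tested genes, and it gave none of the 8 and 1.28% of all tested genes an unadjusted p under 0.05. The authors' deposited single-end table called 0 of 8 and 0.122% of 13150 tested genes, and it gave 1 of the 8 and 2.39% of all tested genes an unadjusted p under 0.05. Called in both tables with the same direction were 0 of 8 members and 0.0386% of 12954 genes. With so few calls in either table, a count of 0 among 8 genes lies near this background. A Stouffer combination of both p-values called 0 of the 8 and 35 of 12954 genes. It gave none of the 8 and 227 of all these genes an unadjusted p under 0.05. By limma on the pooled values none of 11269 genes was called, so its 0 of the 8 says nothing about these genes in particular. An unadjusted p under 0.05 by limma was held by 694 genes and by none of the 8. In whole-worm RNA, fewer cells of a type and less RNA per cell cannot be told apart.

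The members' values were lower in HC125 for 7 of 8 genes paired-end and for 6 of 8 single-end. Over all tested genes the share with a lower value in HC125 was 58.3% in the paired-end table and 59.96% in the single-end table. Their median log2 ratio was -0.12 (paired-end) and -0.13 (single-end), beside -0.03 and -0.04 over all tested genes.

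**Figure D2:**
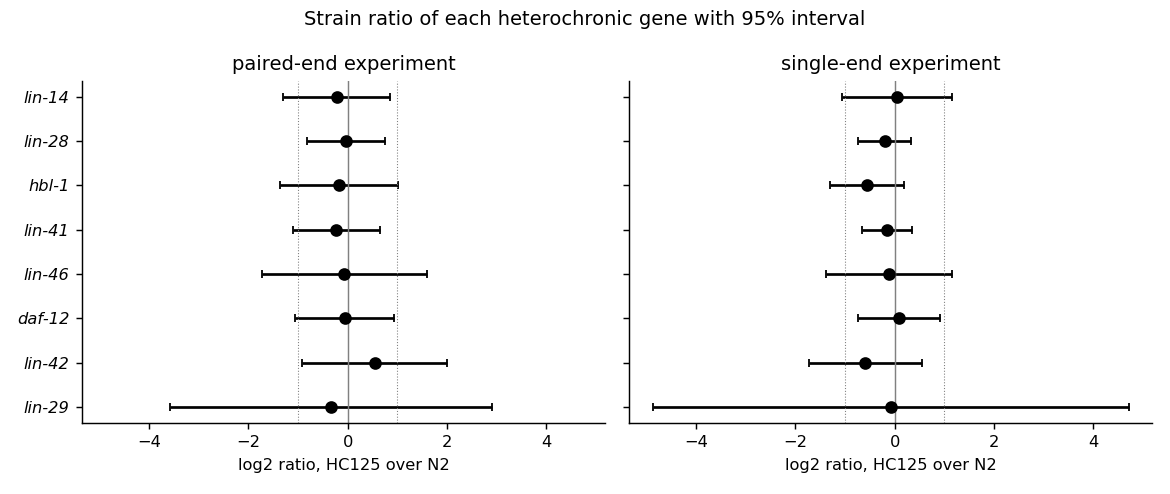
Log2 ratio of HC125 over N2 for each heterochronic gene, with 95% intervals from the implied SE and dotted lines at a 2-fold change in either direction. Every interval spans 0, those of lin-28 are the narrowest or next to narrowest, and those of lin-29 reach beyond the dotted lines on both sides.

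The intervals give a rough size of the change these libraries leave possible. The members' deposited p-values were smaller than their implied SEs give under a normal approximation, so the intervals may be too wide. The HC125 level of lin-28 was 97.4% of the N2 level in the paired-end experiment, with a 95% interval of the ratio from 0.564 to 1.68. It was 87.1% single-end, with an interval from 0.601 to 1.26. lin-41 stood at 85.3% of the N2 level (interval of the ratio 0.465 to 1.57), and at 90.4% in the single-end experiment (interval 0.638 to 1.28). A 2-fold change in either direction lay outside the interval for lin-28 alone in the paired-end experiment, and for lin-28, lin-41 and daf-12 in the single-end experiment. For daf-12 the single-end interval ran from 0.595 to 1.88. For lin-14 the intervals ran from 0.403 to 1.81 and from 0.481 to 2.24, and for lin-46 from 0.303 to 3.01 and from 0.385 to 2.24. For lin-29 they ran from 0.0836 to 7.50 and from 0.0342 to 26.3, so its strain ratio was not resolved at this precision.

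hbl-1 had the smallest p of the group. In the single-end experiment its HC125 level was 67.9% of the N2 level, with a log2 ratio of -0.56 ± 0.38 (implied SE). The authors' deposited table gave p = 0.0344 and q = 1.00 for it. The interval from the implied SE, 0.403 to 1.14, includes no change although the deposited p is under 0.05. The implied SE is thus wide beside the deposited p. Over all tested genes of that table, 1.16% were lower in HC125 at an unadjusted p under 0.05. In the paired-end experiment the hbl-1 level was 88.7% of that in N2, with a log2 ratio of -0.17 ± 0.61, and the authors' deposited table gave p = 0.678.

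The lin-42 ratio took opposite signs in the experiments. Paired-end, it was 0.55 ± 0.75 on the log2 scale (implied SE), and the authors' deposited table gave p = 0.308. Single-end, it was -0.59 ± 0.58, and the authors' deposited table gave p = 0.177. The single-end ratio minus the paired-end ratio came to -1.14 ± 0.95 (z test on these errors, adjusted p = 1.00 over 12921 genes). None of the 8 genes passed this test of the difference, where 0.00774% of all genes did. An unadjusted p under 0.05 in this z test was held by 0.317% of the 12921 genes and by none of the 8. Passing was thus rare for any gene with errors this wide, and not passing says little on whether the experiments match.

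**Figure D3:**
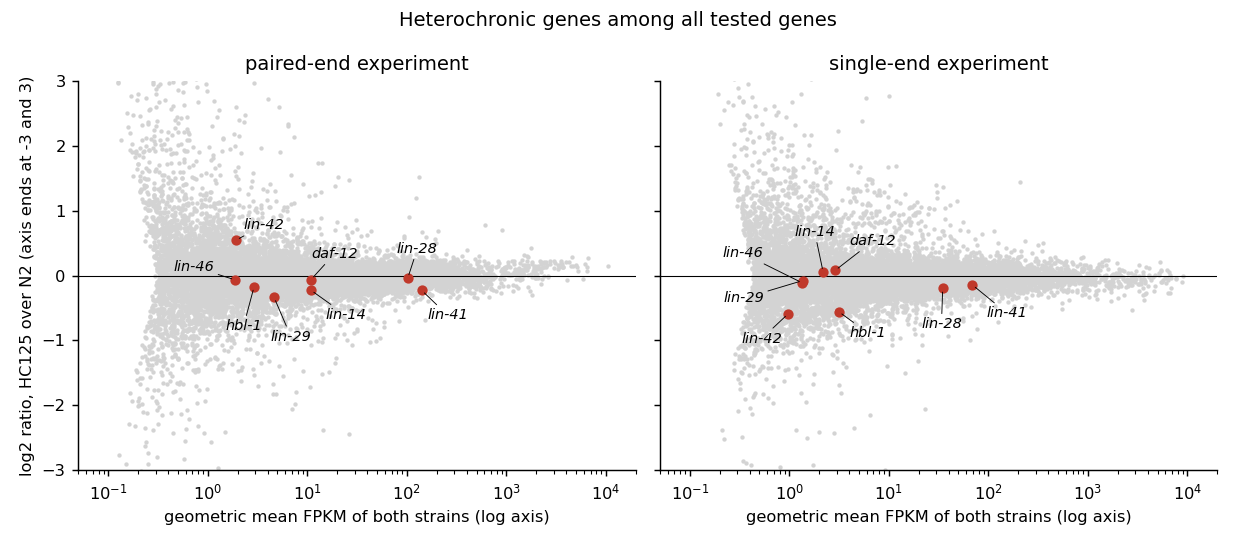
Log2 ratio of HC125 over N2 against the geometric mean FPKM of both strains (log axis) for tested genes with a value above 0 in both, with the heterochronic genes in red. lin-42 lies on opposite sides of 0 in the panels, and all 8 lie within the cloud of tested genes.

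A log2 ratio at least as far from 0 as that of lin-42 was held by 11.3% of tested genes paired-end and 10.6% single-end, and one as far as the single-end ratio of hbl-1 by 11.5%.

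The tested genes of the larval moult cycle also lay on opposite sides of 0 in the experiments. The list holds 13 genes of cuticle shedding and renewal and was written with earlier results of these data known, so its direction is no independent evidence. All 13 were tested in the paired-end experiment and all 13 had a higher value in HC125, with a median log2 ratio of 0.47, beside the -0.03 over all tested genes. Of these, 1 was called higher, where 0.179% of tested genes were. In the single-end experiment 9 were tested and all 9 had a lower value in HC125. Their median was -0.55 beside the -0.04 over all tested genes, and the authors' deposited test called none. Among those too low to test there, col-17, bli-1 and nas-36 had a higher value in HC125 (log2 ratios 1.92, 1.16 and 0.17). qua-1, also too low to test, had a lower one (-0.51). An unadjusted p under 0.05 was held by 4 genes with a higher value paired-end (0.926% of all tested genes) and by 4 with a lower value single-end (1.16%). The moult genes' part in the lin-42 values was not tested.

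The called gene was col-17, a cuticle collagen. It rose to 5.51 FPKM in HC125, against 0.186 FPKM in N2, in the paired-end experiment (q = 0.0270 in the authors' deposited table). Single-end, it was too low to test, at 0.319 FPKM in HC125 and 0.0841 FPKM in N2. noah-2, a protein of the apical extracellular matrix, stood at 5.48 FPKM in HC125 and 4.65 FPKM in N2, then at 12.4 FPKM in HC125 and 19.4 FPKM in N2 in the single-end experiment (p = 0.00410 in the authors' deposited table). nas-37, a protease that helps open the old cuticle, stood at 20.3 FPKM in HC125 and 19.2 FPKM in N2, then at 4.77 FPKM in HC125 and 5.04 FPKM in N2. mlt-8, chosen after its values were seen, stood at 5.63 FPKM in HC125 and 2.23 FPKM in N2, then at 4.33 FPKM in HC125 and 7.13 FPKM in N2. Its single-end minus paired-end difference was -2.05 ± 0.91 (z test on these errors, adjusted p = 1.00 over 12921 genes).

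**Figure D4:**
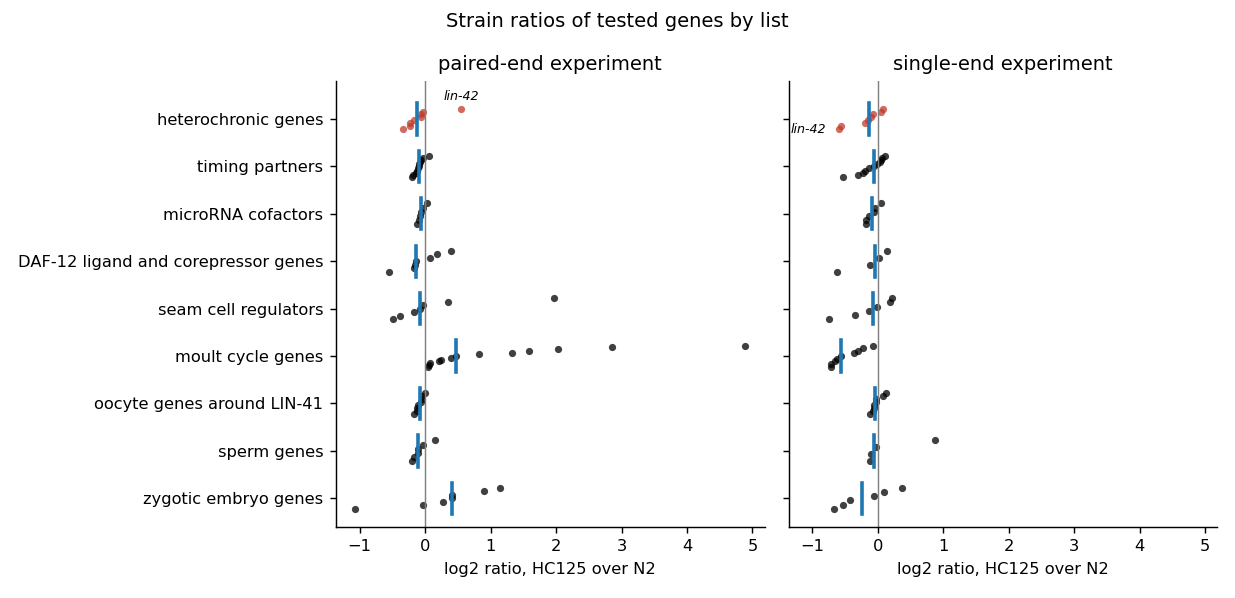
Log2 ratios of HC125 over N2 for the tested genes of each list, 1 point per gene, with the list median as a blue bar and the heterochronic genes in red. The moult cycle genes all lie right of 0 in the paired-end and left of 0 in the single-end panel, and lin-42 lies on the same side as they do in each.

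The label young adult was checked on markers. The adult collagen col-19 and the tested yolk genes were among the most abundant of the listed markers, while the other adult collagen, col-7, was low. The 13 moult genes summed to 65.4 FPKM in HC125 and 48.4 FPKM in N2, then to 42.4 FPKM in HC125 and 60.5 FPKM in N2 in the single-end experiment. The adult cuticle collagen col-19, a target of LIN-29, stood at 1321 FPKM in HC125 and 1365 FPKM in N2, then at 1343 FPKM in HC125 and 1561 FPKM in N2 in the single-end experiment. col-7, another collagen of the adult cuticle, stood at 6.14 FPKM in HC125 and 2.49 FPKM in N2 (p = 0.0190 in the authors' deposited table), then at 2.18 FPKM in HC125 and 1.54 FPKM in N2. Neither was called. The yolk gene vit-2 stood at 3476 FPKM in HC125 and 3099 FPKM in N2 in the single-end experiment, and vit-6 at 3650 FPKM in HC125 and 3501 FPKM in N2 there. vit-1 stood at 1572 FPKM in HC125 and 1859 FPKM in N2 in the paired-end experiment, where the other 5 yolk genes carry the authors' mark for loci too deep to process and are listed at 0. Of the 6 yolk genes 3 were tested single-end, and none was called in either experiment.

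Zygotic genes of the embryo, which embryos in the uterus could add, summed over 8 genes to 10.8 FPKM in HC125 and 10.1 FPKM in N2, then to 11.9 FPKM in HC125 and 13.0 FPKM in N2. Their median log2 ratio was 0.42 paired-end and -0.24 single-end, and the authors' deposited tables gave none of them a call or an unadjusted p under 0.05. Among them pes-10 stood at 3.12 FPKM in HC125 and 2.59 FPKM in N2, then at 1.963 FPKM in HC125 and 2.65 FPKM in N2. A large part of each sum came from nob-1, the highest of the 8 in every value. It stood at 4.76 FPKM in HC125 and 4.86 FPKM in N2, then at 5.84 FPKM in HC125 and 5.48 FPKM in N2. The 6 sperm genes summed to 33.8 FPKM in HC125 and 35.4 FPKM in N2, then to 6.84 FPKM in HC125 and 6.66 FPKM in N2, with none called. The part of embryos and sperm in the members' values was not tested.

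Further genes of the timing pathway were measured in the same worms, and none of them was called. Over all tested genes 0.212% were called paired-end and 0.122% single-end. No call in a list this short lies near that background, here and for the other lists without a call. Of 12 listed partners of the heterochronic genes 11 were tested, and 10 had a lower value in HC125 paired-end and 7 single-end, with median log2 ratios of -0.09 and -0.06. Over all tested genes 58.3% and 59.96% had a lower value in HC125, with medians of -0.03 and -0.04. apl-1, the worm amyloid precursor relative, stood at 56.1 FPKM in HC125 and 61.3 FPKM in N2, then at 28.4 FPKM in HC125 and 31.1 FPKM in N2. nhr-23, a nuclear receptor of the moulting cycle, stood at 43.5 FPKM in HC125 and 49.2 FPKM in N2, then at 22.99 FPKM in HC125 and 21.9 FPKM in N2. blmp-1, a transcription factor that primes cycling genes, stood at 7.09 FPKM in HC125 and 7.56 FPKM in N2, then at 1.67 FPKM in HC125 and 2.40 FPKM in N2 (p = 0.111 in the authors' deposited table). mab-10, the cofactor of LIN-29, and kin-20, the casein kinase relative, were chosen after their values were seen. mab-10 stood at 6.86 FPKM in HC125 and 7.14 FPKM in N2, then at 8.65 FPKM in HC125 and 8.03 FPKM in N2. kin-20 stood at 29.8 FPKM in HC125 and 32.2 FPKM in N2, then at 29.3 FPKM in HC125 and 28.4 FPKM in N2.

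RNA of the genes for microRNA silencing was detected in both strains. All 6 listed genes of the microRNA machinery were tested, none was called, and the log2 ratios ran from -0.13 to 0.03 paired-end and from -0.18 to 0.04 single-end. ain-2, a GW182-type protein of the silencing complex, stood at 76.2 FPKM in HC125 and 79.4 FPKM in N2, then at 30.6 FPKM in HC125 and 31.6 FPKM in N2. nhl-2, a TRIM-NHL cofactor of microRNA silencing, stood at 66.8 FPKM in HC125 and 72.9 FPKM in N2, then at 38.3 FPKM in HC125 and 43.5 FPKM in N2. The microRNAs lin-4, let-7, mir-48, mir-84 and mir-241 and the partner gene lep-2 were not analysed here.

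Genes that make the DAF-12 ligand or bind the receptor were tested for 7 of 7 names paired-end and 4 of 7 single-end, with none called. din-1, a corepressor of DAF-12, stood at 19.8 FPKM in HC125 and 21.7 FPKM in N2, then at 25.9 FPKM in HC125 and 28.01 FPKM in N2. daf-36, an oxygenase early in ligand synthesis, stood at 20.8 FPKM in HC125 and 23.4 FPKM in N2, then at 7.65 FPKM in HC125 and 6.97 FPKM in N2. strm-1, a sterol methyltransferase that lowers the supply of ligand precursors, had the smallest p of the list and stood at 1.03 FPKM in HC125 and 1.501 FPKM in N2, then at 1.15 FPKM in HC125 and 1.77 FPKM in N2 (p = 0.188 in the authors' deposited table).

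Genes of the seam cells, the skin stem cells in which most heterochronic phenotypes are read, were mostly low in these whole worms. Of 8 listed, 7 were tested paired-end and 6 single-end, and none was called. egl-18, a GATA factor, and grd-10 were the highest. egl-18 stood at 28.6 FPKM in HC125 and 30.2 FPKM in N2, then at 31.2 FPKM in HC125 and 31.6 FPKM in N2. ceh-16, the engrailed relative, stood at 0.703 FPKM in HC125 and 0.920 FPKM in N2, then at 0.625 FPKM in HC125 and 1.05 FPKM in N2.

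Most of the heterochronic genes have long 3' untranslated regions, the part of the RNA that microRNAs bind. In the WBcel235 annotation the longest such region was 1604 bp for lin-14, 1394 bp for hbl-1 and for daf-12, 1165 bp for lin-41, 939 bp for lin-42, 697 bp for lin-29 and 531 bp for lin-28. Each of these 7 was longer than in at least 92.0% of 16805 coding genes with an annotated one, whose median was 131 bp. lin-46, at 153 bp, was longer than 56.3% of them. These lengths describe the annotated genes and not the samples.

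The spans listed in the tables differ from the WBcel235 gene models at several of the heterochronic genes. lin-14 (WBGene00003003) is listed on chromosome X from 11468500 to 11484267, plus strand, which ends at the stop codon and leaves out the 1604 bp of the 3' untranslated region, and its annotated start lies 2940 bp further upstream. daf-12 (WBGene00000908) is listed on chromosome X from 10644407 to 10666869, plus strand, and its annotated start lies 8499 bp further upstream. lin-42 (WBGene00018572) is listed on chromosome II from 1233244 to 1244035, minus strand, and its annotated start lies 8324 bp further upstream. hbl-1 (WBGene00001824; X, 5822277 to 5827691, plus strand), lin-41 (WBGene00003026; I, 9334850 to 9342496, minus strand) and lin-28 (WBGene00003014; I, 8407802 to 8410804, minus strand) differ from the annotation by at most 172 bp at either end. lin-46 (WBGene00003031; V, 12968853 to 12970732, plus strand) covers its annotated model, and lin-29 (WBGene00003015) is listed on chromosome II from 11916513 to 11935343, minus strand. Whether reads from outside the listed spans entered the levels of lin-14, daf-12 and lin-42 was not tested.

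For each heterochronic gene the most similar gene was taken as the one nearest over the 4 log2(FPKM + 1) values among 20522 other genes. This was noca-1 for lin-41 (Euclidean distance 0.174), T21B10.4 for lin-28 (0.0899), F43C1.5 for lin-14 (0.148), syd-9 for hbl-1 (0.145), cyp-37A1 for daf-12 (0.138), acr-11 for lin-46 (0.116), mod-1 for lin-42 (0.131) and F55H12.3 for lin-29 (0.0327). For instance mod-1 stood at 2.13 FPKM in HC125 and 1.60 FPKM in N2, then at 0.916 FPKM in HC125 and 1.18 FPKM in N2. A distance over 4 values reflects level as much as strain ratio.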

How the data were processed

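TopHat2 2.0.1 and Cufflinks 2.2.1 were used, per the submitters' processing notes; the genome build is not given in the sources used here. Per the file headers, both tables follow the layout of Cuffdiff, with 1 FPKM value per strain, pooled by the authors. The test statistic, a score, and the p-value and q-value were deposited by the authors. Listed starts count from 0 and were raised by 1. Of 20194 genes found in the WBcel235 annotation, 2583 then had the same offset at start and end, and 97.4% of these had no offset. The rest had unlike offsets at start and end.

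The SE of a log2 ratio is the ratio divided by the test statistic; 95% intervals use a normal approximation. Tables were kept apart, as they were normalized separately. Differences between experiments used z tests, Benjamini-Hochberg adjusted over all genes with both errors. Alternatives included pseudocounts, a filter at 1 FPKM and limma 3.58.1 (R 4.3.3). The statistics were tested on simulated data whose SEs were capped below 0.66, the paired-end median over all tested genes. That setting is easier than the data for most of the members paired-end, whose implied SEs exceeded the cap, among them lin-14 (0.55), hbl-1 (0.61), lin-46 (0.85) and lin-29 (1.65). The simulated p-values followed exactly from the SEs, unlike the deposited ones. No difference between experiments was simulated, so the power of the z test was not tested. Depth is unknown, so no counting interval is given.

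The members, the 11 lists and the rule for named genes were chosen with earlier results of these data known. The rule names, per list, called genes, the 2 highest in FPKM and the gene of smallest p per table; of these some are summarised only. Of 81 listed names, 75 were found.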

Additional observations from a re-analysis of the deposited data

How the results depend on the processing

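No heterochronic gene was called at q of 0.01, 0.05 or 0.1 or less, with a filter at 1 FPKM, by the Stouffer combination or by limma. Over all genes the paired-end count of 32 and the single-end count of 16 were 0 and 0 at q of 0.01 or less, because the lowest deposited q is 0.0270 and 0.0411. The count of 5 genes called in both tables was 35 with the Stouffer combination (227 at an unadjusted p under 0.05) and 0 with limma (694 at an unadjusted p under 0.05). Pseudocounts of 1 and 0.1 and centring on the median log2 ratio (-0.04 and -0.05) changed the sign of none of 48 recomputed member ratios, and each moved by less than its implied SE, by at most 0.30. No paired analysis was possible because the tables pool the libraries of a strain, and leaving out single libraries was not run for the same reason. Depth is unknown, and the width of the intervals limits what can be said of lin-29, lin-42 and lin-46.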

Other observations

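The heterochronic genes were set against the genes of their own chromosomes. On chromosome I, which carries lin-28 and lin-41, the median of 2921 genes was 11.9 FPKM in HC125 and 12.4 FPKM in N2 in the paired-end experiment, and 7.07 FPKM in HC125 and 7.43 FPKM in N2 in the single-end experiment. Both genes lay above it in every value. On chromosome X, which carries lin-14, hbl-1 and daf-12, the median of 2829 genes was 2.61 FPKM in HC125 and 2.64 FPKM in N2, then 1.33 FPKM in HC125 and 1.49 FPKM in N2. The 3 genes lay above these medians in all 4 values too, hbl-1 by the smallest margin in the paired-end experiment, at 2.74 FPKM in HC125 and 3.09 FPKM in N2. On chromosome II, the median of 3547 genes was 2.84 FPKM in HC125 and 2.69 FPKM in N2, then 1.67 FPKM in HC125 and 1.67 FPKM in N2. There lin-42 lay below the median in all 4 values, and lin-29 lay above it paired-end and below it single-end. On chromosome V, the median of 5172 genes was 0.603 FPKM in HC125 and 0.564 FPKM in N2, then 0.283 FPKM in HC125 and 0.291 FPKM in N2, and lin-46 lay above it in all 4 values.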
